A study of Mus musculus with 7 samples.

Results

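Oxidative phosphorylation genes encode the protein complexes of the inner mitochondrial membrane that pass electrons to oxygen and make ATP. They were taken here as all genes measured alone by a row of the array whose symbol begins with Nduf (complex I), Uqcr or Atp5 (complexes III and V) or is Sdha to Sdhd (complex II), Cyc1, Cycs or Cox with a number (complex IV). This gave 96 of the 18938 genes, namely 39 of complex I, 4 of complex II, 10 of complex III with cytochrome c, 26 of complex IV and 17 of complex V. Since the symbol rule reads names only, it also took in 15 assembly factors and 8 tissue isoforms of complex IV. Assembly factors help to build a complex, and Cox7a2l, a factor of supercomplexes, was counted with them. A further 5 rows name such a gene together with another one, among them Cox7c and Ndufs5, and were left out. Subunits encoded by mitochondrial DNA were not analysed here.

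The RNA came from prostates of recombinant inbred B6/129 mice that were all homozygous null for Nkx3.1, a homeobox transcription factor of the prostate epithelium. From weaning, vehicle mice drank plain water and NAC mice drank water with 5 mM N-acetylcysteine (NAC), an antioxidant and a precursor of glutathione, for 13 weeks, until they were 16 weeks old. There were 3 vehicle arrays (replicates 1, 2 and 4) and 4 NAC arrays (replicates 1 to 4), each from 1 mouse, and littermates had been divided between vehicle and NAC cages, so that cage and treatment cannot be told apart. The labels name the anterior prostate in the extraction protocol and the whole prostate as tissue. Nkx3.1+/+ arrays and the level of the deleted gene were not analysed here, so the deletion was not checked. Luminal epithelial markers were at a mean log2 level of 12.20 to 12.28 on all 7 arrays. NAC replicate 3 stood apart: its median deviation from the mean of the 7 arrays was 1.5 log2 units for 5 lung epithelium markers, 1.15 for 7 adipocyte markers and 0.62 for 14 skeletal muscle markers, while no other array was above 0 for these lists. NAC replicate 1 had the highest median deviation for 4 leukocyte markers (0.41 against -0.15 to 0.02 on the other arrays). Within that list Itgam (7.87) and Adgre1 (7.91) were highest on this array, while Cd3e (6.76) was lowest on it. Its median deviation was also the highest for 3 basal epithelium markers (0.28 against -0.23 to 0.13). There Krt5 and Krt14 were highest on NAC replicate 1, but Trp63 was highest on vehicle replicate 1 (9.04 against 8.91).

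Complex I takes electrons from NADH and complex II from succinate, complex III hands them to cytochrome c, complex IV passes them on to oxygen, and complex V uses the resulting proton gradient to make ATP. Complexes I and III are also known as sources of superoxide, one of the reactive oxygen species that antioxidants act on. The secretory prostate epithelium is known for exporting citrate, a fuel of the same pathway. Since the RNA is from whole tissue, fewer cells of a type and less RNA per cell cannot be told apart.

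Promoters of the respiratory chain are known as CpG-rich and often bound by the factors NRF1 and those of the ETS family. In RefSeq promoter windows (GRCm38.p6, 250 bases before to 30 after the start, the first window listed for a gene) 77 of the 96 genes were found. The letters GCGCANGC, as NRF1 binds them, stood on either strand in 23 of these 77 windows (29.9%), against 9.61% of all 27025 windows. The ETS letters CCGGAAG were in 19 (24.7%) against 8.70%, the YY1 letters AANATGGCG in 3.90% against 1.91%, and the ERR letters AAGGTCA in 5.19% against 4.42%. The NRF1 letters were found in 1 of 18 windows of complex IV and in 7 of 15 of complex V. The median number of CG dinucleotides in a window was 19 for these genes and 7 for all genes. A match describes the letters and shows neither binding nor control. Below are 4 windows, 5′ to 3′, with every match of these motifs or of TATAAA in capitals. They are shown because they represent a mobile electron carrier, the complex I subunit with the smallest p, and the ubiquitous and muscle forms of the same complex IV subunit. They lie at chr6:50566540-50566819 (minus strand), chr8:83566508-83566787 (plus strand), chr19:7217587-7217866 (minus strand) and chr7:140900417-140900696 (minus strand).
Cycs: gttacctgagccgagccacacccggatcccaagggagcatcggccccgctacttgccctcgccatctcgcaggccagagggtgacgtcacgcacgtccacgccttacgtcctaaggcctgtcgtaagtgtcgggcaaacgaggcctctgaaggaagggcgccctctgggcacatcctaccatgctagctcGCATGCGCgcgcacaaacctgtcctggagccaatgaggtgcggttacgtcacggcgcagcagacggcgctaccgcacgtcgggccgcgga
Ndufb7: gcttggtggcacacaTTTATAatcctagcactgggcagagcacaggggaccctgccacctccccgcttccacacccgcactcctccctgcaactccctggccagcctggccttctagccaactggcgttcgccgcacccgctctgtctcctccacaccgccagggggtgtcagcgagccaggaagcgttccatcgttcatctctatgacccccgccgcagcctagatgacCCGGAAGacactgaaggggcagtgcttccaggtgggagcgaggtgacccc
Cox8a: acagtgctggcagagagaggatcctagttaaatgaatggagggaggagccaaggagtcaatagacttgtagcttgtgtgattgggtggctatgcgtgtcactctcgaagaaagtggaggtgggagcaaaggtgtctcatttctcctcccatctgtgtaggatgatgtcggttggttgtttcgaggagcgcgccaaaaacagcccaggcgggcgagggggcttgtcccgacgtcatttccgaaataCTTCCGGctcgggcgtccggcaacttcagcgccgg
Cox8b: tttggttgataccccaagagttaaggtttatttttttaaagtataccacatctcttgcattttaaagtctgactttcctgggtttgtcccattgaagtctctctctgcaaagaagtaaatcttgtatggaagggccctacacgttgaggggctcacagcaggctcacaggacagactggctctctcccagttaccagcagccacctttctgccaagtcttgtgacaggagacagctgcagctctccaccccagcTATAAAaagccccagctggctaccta
In capitals are an NRF1 match in Cycs, a TATA match (on the other strand, as TTTATA) and an ETS match in Ndufb7, an ETS match in Cox8a and a TATA match in Cox8b. The Cycs window holds 30 CG dinucleotides, that of Ndufb7 14, that of Cox8a 17 and that of Cox8b 1.

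To ask whether NAC treatment changed the RNA of these genes, NAC arrays were compared with vehicle arrays by limma, with p-values adjusted over all 18938 genes. None of the 96 genes passed an adjusted p of 0.05 (smallest 0.827), where 0.0% of all genes passed. The median log2 difference, NAC minus vehicle, was 0.0076 over the 96 genes and -0.0003 over all genes. It was higher than 0 in 53 and lower in 43, and it was higher in 66 of 96 after quantile normalization of the arrays again. Without vehicle replicate 4 the median turned to -0.0022, with 46 of 96 higher, and the median over all genes was -0.0042. Differences ranged from -0.36 (Ndufab1) to 0.21 (Atp5l), and 79.2% of the 96 genes differed by less than 0.1 log2 units, against 78.2% of all genes. The 95% interval of the difference stayed within 1.5-fold in both directions for 94 of the 96 genes, beside 96.9% of all genes. The exceptions were Ndufab1 (-0.63 to -0.09) and Cycs (-0.80 to 0.51). The median gene had an interval of 0.12 log2 units to either side, or 1.084-fold. Each interval is an estimate for the mean RNA difference of a single gene between such groups of mice, unadjusted for the number of genes. The intervals say nothing of protein or respiration.

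**Figure D1:**
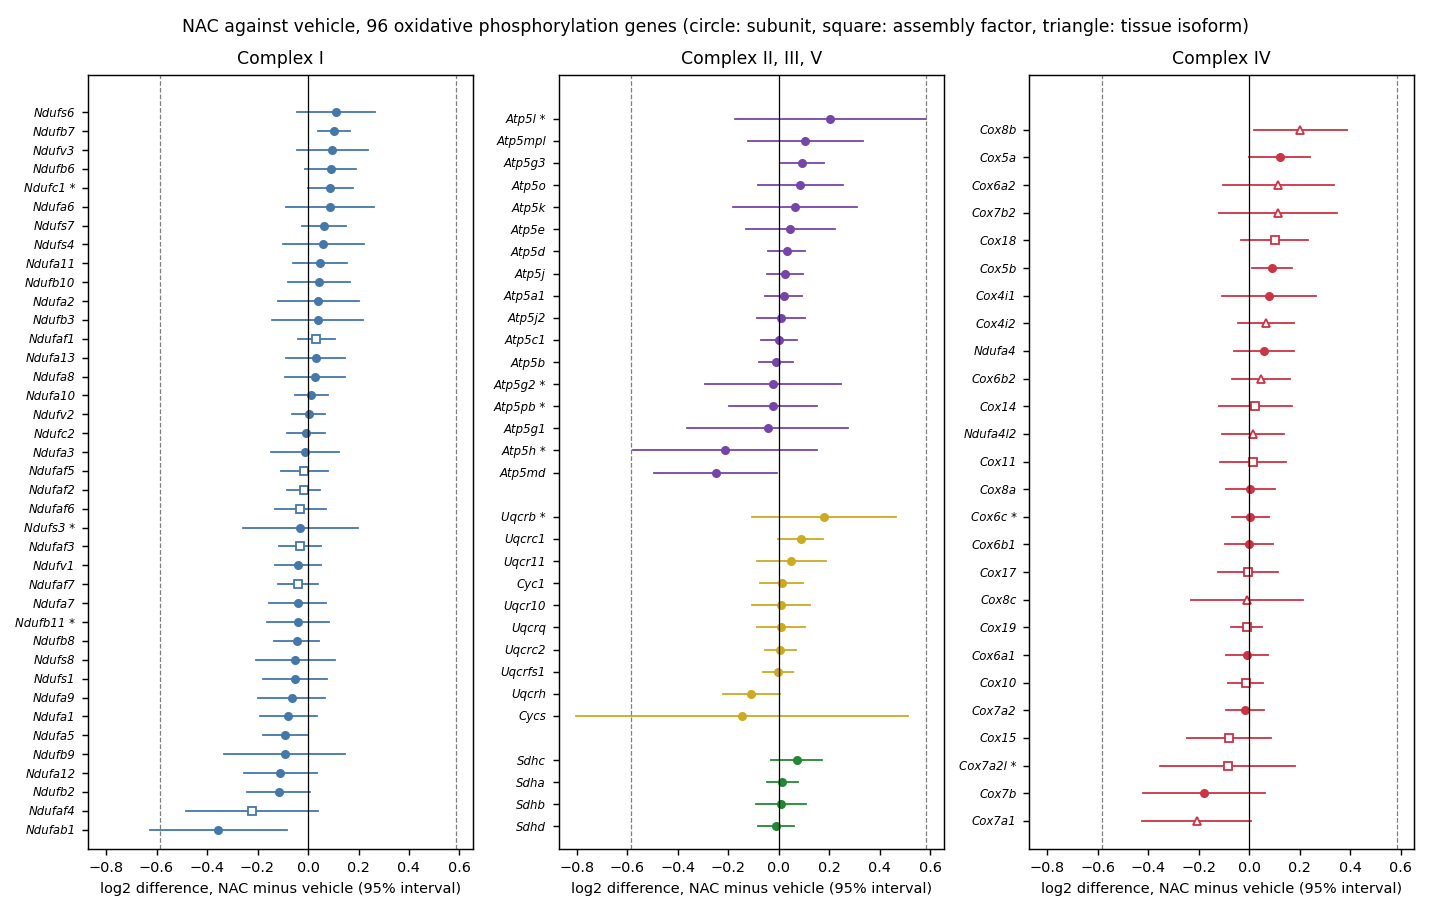
Log2 difference between NAC (n = 4) and vehicle (n = 3) for each of the 96 genes (x axis, log2 units) with the 95% interval of the limma fit, sorted within complexes. Dashed lines mark 1.5-fold, open symbols are assembly factors (squares) and tissue isoforms (triangles), and an asterisk marks the 10 genes whose row was placed among rows of another chromosome. Of the 96 intervals, 94 lie between the dashed lines.

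At an unadjusted p under 0.05, 4 of the 96 genes were higher with NAC (1.89% of all genes were) and 2 were lower (2.53% of all genes). Higher were Ndufb7, Cox5b, Atp5g3 and Cox8b, and lower were Ndufab1 and Atp5md. In all, 6 of the 96 genes (6.25%) had such a p, against 4.41% of all genes. Without the lowest 40% of genes by mean, which include Cox8b, it was 5 of 88 (5.68%), against 4.88% of the genes kept. The share was 3.12% without NAC replicate 1 (4.15% of all genes), 12.5% without NAC replicate 2 (6.64%), 9.38% after quantile normalization again (4.29%) and 10.4% with array weights (5.05%). In 4 genes every NAC array was above every vehicle array (Ndufb7, Uqcrc1, Atp5g3, Cox8b), as in 1.29% of all genes. In 3 genes every NAC array was below (Ndufab1, Uqcrh, Cox7a1), as in 2.18% of all genes.

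**Figure D2:**
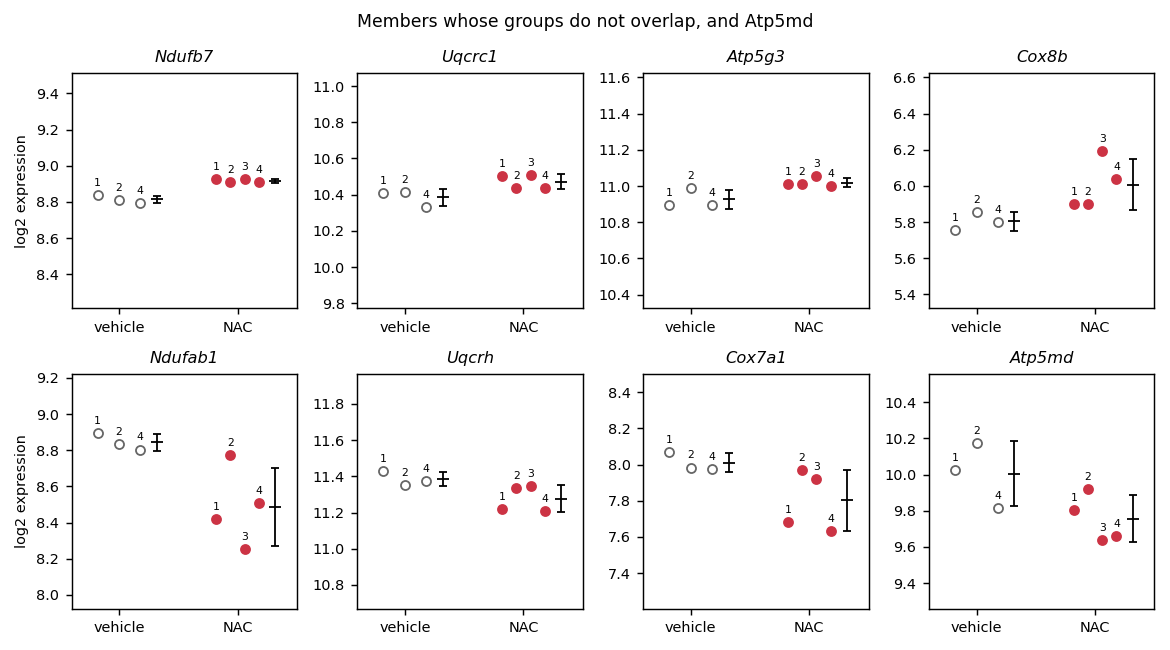
Log2 expression of the 7 genes whose groups did not overlap and of Atp5md, with 1 point per array labelled by replicate (open, vehicle, n = 3; filled, NAC, n = 4) and the mean with its SD in black. Each y axis spans 1.3 log2 units, so that the small spread of Ndufb7 and the wide one of Ndufab1 among NAC arrays can be compared.

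In complex I, 17 genes were higher and 22 lower with NAC, with a median of -0.0152. Ndufb7, an accessory subunit of the membrane arm, was at 8.84, 8.81 and 8.80 on vehicle replicates 1, 2 and 4 and at 8.93, 8.91, 8.93 and 8.91 on NAC replicates 1 to 4. The groups did not overlap, and all 7 values lay within a narrow band. The difference was 0.10 (standard error 0.03, limma adjusted p = 0.827). Ndufab1 is the mitochondrial acyl carrier protein, which serves fatty acid synthesis as well as complex I. It was at 8.89, 8.83 and 8.80 with vehicle and at 8.42, 8.77, 8.25 and 8.51 with NAC. All NAC arrays were lower, with replicate 2 close to the vehicle arrays and replicate 3 lowest. The vehicle mean was 8.84 ± 0.05 (SD, n = 3), the NAC mean 8.49 ± 0.22 (SD, n = 4), and the difference of -0.36 (standard error 0.11) had an adjusted p of 0.827. It was -0.28 without NAC replicate 3 and -0.45 without NAC replicate 2.

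Of the other complex I subunits with the smallest p, Ndufa5, of the matrix arm, and the membrane arm subunit Ndufb2 had differences of -0.09 and -0.12 (adjusted p = 0.827 for both). Ndufc1 and Ndufb6, also of the membrane arm, had differences of 0.09 each (adjusted p = 0.827). In Ndufc1 the highest vehicle array was at 9.78 and the lowest NAC array at 9.78. The core subunits of the matrix arm, where electrons pass through a flavin and iron-sulfur clusters, had small differences. Of 6 of them, 2 were higher and 4 lower, between -0.05 (Ndufs1) and 0.06 (Ndufs7), and Ndufv2, an iron-sulfur subunit next to the flavin site, was at 11.35 on each vehicle array and between 11.33 and 11.38 with NAC.

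Complex II, succinate dehydrogenase, has no subunit encoded by mitochondrial DNA, and all 4 of its genes were measured. Sdha, the flavoprotein, was at 11.02 on all vehicle arrays and at 11.05, 11.02, 11.05 and 11.02 with NAC. The iron-sulfur protein Sdhb had a difference of 0.01, with a 95% interval of -0.09 to 0.11. Of the membrane anchors, Sdhc was at 10.49, 10.34 and 10.35 with vehicle and at 10.48, 10.45, 10.46 and 10.47 with NAC, so that vehicle replicate 1 lay with the NAC arrays. Its difference was 0.07 (interval -0.03 to 0.17) and that of Sdhd -0.01 (interval -0.08 to 0.06). Adjusted p-values in complex II were 0.827 to 0.970.

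In complex III, 7 genes were higher and 3 lower. Uqcrc1, a core protein on the matrix side, was at 10.41, 10.41 and 10.33 with vehicle and at 10.50, 10.44, 10.51 and 10.44 with NAC, all above vehicle, a difference of 0.09 (standard error 0.04, adjusted p = 0.827). Its partner Uqcrc2 was at 11.92 to 11.95 on all 7 arrays. Uqcrh, the hinge protein at the cytochrome c1 side, went the other way. It was at 11.43, 11.35 and 11.37 with vehicle and at 11.22, 11.34, 11.34 and 11.21 with NAC, a difference of -0.11 (standard error 0.05, adjusted p = 0.827). NAC replicates 2 and 3 lay only just under the lowest vehicle array. The small subunits Uqcrb and Uqcr11 had differences of 0.18 (interval -0.10 to 0.47) and 0.05 (interval -0.09 to 0.19). With single arrays left out they ranged from 0.11 to 0.32 and from 0.0088 to 0.08. Cyc1 and the Rieske protein Uqcrfs1, which carry the redox groups, were within 10.03 to 10.15 and 8.65 to 8.66. The same value stood on 6 arrays for Uqcrfs1, on 4 for Uqcrc2 and on 3 for Cyc1.

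Cytochrome c itself was measured least exactly, on a row among the lowest 40% of genes by mean. Cycs was at 5.81, 5.61 and 6.13 with vehicle and at 5.32, 6.20, 5.24 and 6.08 with NAC. NAC replicates 1 and 3 lay below all vehicle arrays, NAC replicates 2 and 4 lay near the highest of them, and the range of 0.96 log2 units was the widest of the 96 genes. The difference was -0.14 (standard error 0.28, adjusted p = 0.914).

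In complex IV, cytochrome c oxidase, 15 genes were higher and 11 lower. Cox5b, a zinc-binding subunit on the matrix side, was at 11.71, 11.63 and 11.64 with vehicle and at 11.77, 11.77, 11.75 and 11.71 with NAC, a difference of 0.09 (standard error 0.03, adjusted p = 0.827). NAC replicate 4 and vehicle replicate 1 met. Cox5a, its neighbour in the complex, was at 9.78, 9.84 and 9.72 with vehicle and at 10.003, 9.84, 9.86 and 9.90 with NAC, a difference of 0.12 (standard error 0.05, adjusted p = 0.827). Cox7b, a small transmembrane subunit, had a difference of -0.18 (interval -0.42 to 0.06). Ndufa4, once counted to complex I and now to complex IV, had a difference of 0.06 (interval -0.06 to 0.18) and Cox4i1 of 0.08 (interval -0.11 to 0.27).

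Several complex IV subunits exist as a ubiquitous form and a form made in certain tissues. Beside Cox4i1 and Cox7b above, whose intervals were wider, the ubiquitous forms Cox6a1, Cox6b1, Cox7a2 and Cox8a differed by -0.01, -0.0021, -0.02 and 0.0042 log2 units, with intervals that all lay between -0.10 and 0.10. Of the forms known from heart and skeletal muscle, Cox8b was at 5.75, 5.86 and 5.80 with vehicle and at 5.90, 5.90, 6.19 and 6.04 with NAC. Its row was among the lowest 40% of genes by mean. All NAC arrays were higher, and replicate 3, where the medians of the muscle and adipocyte markers were high, was highest. The difference was 0.20 (standard error 0.08, adjusted p = 0.827), and 0.14 without NAC replicate 3. Cox6a2 was at 7.23, 7.04 and 7.19 with vehicle and at 7.13, 7.19, 7.26 and 7.49 with NAC, with the groups overlapping and NAC replicate 4 highest. The difference was 0.11 (interval -0.11 to 0.33). Cox7a1 was at 8.07, 7.98 and 7.98 with vehicle and at 7.68, 7.97, 7.92 and 7.63 with NAC. All NAC arrays were lower, with replicates 2 and 3 close to vehicle, and the difference was -0.21 (standard error 0.09, adjusted p = 0.827). The differences of the muscle forms did not share 1 direction. All 14 skeletal muscle markers had a higher mean with NAC, with 0 of 14 passing the adjusted test, and Ckm was at 8.76 on NAC replicate 3 and between 7.95 and 8.12 on the other arrays. The part of these cells in the Cox8b values was not tested.

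The forms known from testis, Cox6b2, Cox7b2 and Cox8c, had differences of 0.05, 0.11 and -0.0077. Cox4i2 and Ndufa4l2, which are known to respond to low oxygen, had differences of 0.07 (interval -0.04 to 0.18) and 0.02 (interval -0.11 to 0.14). Of the 8 tissue isoforms 2 were lower and 6 higher. Their median difference was 0.06, and their median range over the 7 arrays, 0.41 log2 units, was above that of all 96 genes (0.20). Like Cox8b, the rows of Cox7b2, Cox8c and Ndufa4l2 were among the lowest 40% of genes by mean. The part of low signal in these values was not tested.

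**Figure D3:**
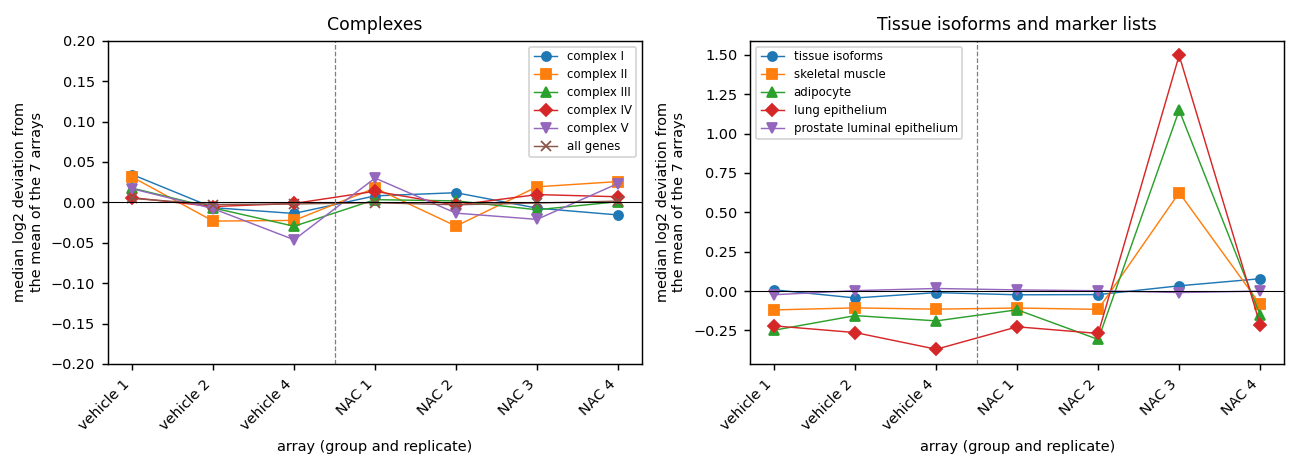
Median deviation from the mean of the 7 arrays (y axis, log2 units) on each array, for the complexes and all genes (left) and for the tissue isoforms and marker lists (right, wider scale). The complexes stayed between -0.05 and 0.03 on every array, while lung, adipocyte and muscle markers stood at 1.5, 1.15 and 0.62 on NAC replicate 3.

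In complex V, ATP synthase, 6 genes were lower and 11 higher, and the median difference was 0.0203. The 5 genes of the catalytic head, Atp5a1, Atp5b, Atp5c1, Atp5d and Atp5e, differed by -0.01 to 0.05. Atp5b, the catalytic beta subunit, was at 12.73 on all vehicle arrays and between 12.68 and 12.75 with NAC. The c subunit, whose ring turns in the membrane, is encoded by Atp5g1, Atp5g2 and Atp5g3. Atp5g3 was at 10.89, 10.99 and 10.90 with vehicle and at 11.01, 11.01, 11.05 and 11.002 with NAC, all above vehicle, a difference of 0.09 (standard error 0.04, adjusted p = 0.827). The other two had differences of -0.04 and -0.02 with standard errors of 0.13 and 0.11, so a shift of the same size could not be seen in them.

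Atp5md, a small membrane subunit that helps ATP synthase dimers to form, was at 10.02, 10.18 and 9.82 with vehicle and at 9.80, 9.92, 9.64 and 9.66 with NAC. NAC replicate 2 lay above the lowest vehicle array. The difference was -0.25 (standard error 0.10, adjusted p = 0.827), and -0.16 without vehicle replicate 2. Atp5l, subunit g of the membrane part, was at 11.49, 11.14 and 11.24 with vehicle and at 11.68, 11.13, 11.45 and 11.73 with NAC, with the groups overlapping, a difference of 0.21 (interval -0.17 to 0.58). Atp5h and Atp5o, of the stalk that holds the head, had differences of -0.21 (interval -0.58 to 0.15) and 0.09 (interval -0.08 to 0.25). Without vehicle replicate 1 that of Atp5h was -0.04, and without vehicle replicate 4 that of Atp5o was 0.03. The row of Atp5h was among the lowest 40% of genes by mean.

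Of the 15 assembly factors 11 were lower with NAC and 4 higher, and the median difference was -0.0152. Ndufaf4, an assembly factor of complex I, was at 7.78, 7.56 and 7.35 with vehicle and at 7.42, 7.45, 7.29 and 7.20 with NAC, a difference of -0.22 (standard error 0.11, adjusted p = 0.827), or -0.12 without vehicle replicate 1. Ndufaf7, which methylates a complex I subunit, had a difference of -0.04. Cox18, which inserts a mitochondrially made subunit into the membrane, had a difference of 0.10 (interval -0.03 to 0.23). Cox15, an enzyme of heme a synthesis, had a difference of -0.08. Cox7a2l, a factor of supercomplexes, was at 10.82, 10.54 and 10.62 with vehicle and at 10.73, 10.32, 10.63 and 10.62 with NAC, a difference of -0.09 (interval -0.35 to 0.18).

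The spread between mice was small for most of these genes. The median range over the 7 arrays was 0.20 log2 units, against 0.25 for all genes, and 0.09 for complex II, 0.08 for the ATP synthase head and 0.30 for complex V as a whole. The widest were Cycs (0.96), Atp5h (0.72), Ndufab1 (0.64), Atp5l (0.60), Ndufaf4 (0.58), Atp5md (0.54), Atp5g1 (0.51) and Cox7a2l (0.51). In 23 of the 96 genes (24.0%) at least 3 arrays held the same value to 6 decimals, while 7568 of all 18938 genes (40%) did. NAC replicate 1 was the single highest array for 24 of the 96 genes (25%) and for 11.8% of all genes, vehicle replicate 1 for 24.0% and 18.3%, and vehicle replicate 4 the single lowest for 22.9% and 13.5%. NAC replicate 1 also had the highest leukocyte and basal marker medians, and the part of cell types in this was not tested. Over the 4560 pairs of genes the median correlation across the 7 arrays was 0.052, on arrays that share 1 normalization. For Atp5l the most similar pattern was that of Atp5k, another small membrane subunit (r = 0.935 over 7 arrays), and for Ndufab1 that of Ndufb2 (r = 0.931 over 7 arrays), both as descriptions. Each was the strongest correlation of either sign among the 96 genes. The next strongest was inverse for both Atp5l (with Ndufb9, r = -0.932) and Ndufab1 (with Cox8b, r = -0.874). Such values were picked as the largest of many over 7 arrays and were not tested. The strongest was inverse for Atp5md (with Ndufc1, r = -0.948) and Cycs (with Sdha, r = -0.896). It was positive for Atp5h, Ndufaf4, Atp5g1 and Cox7a2l.

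**Figure D4:**
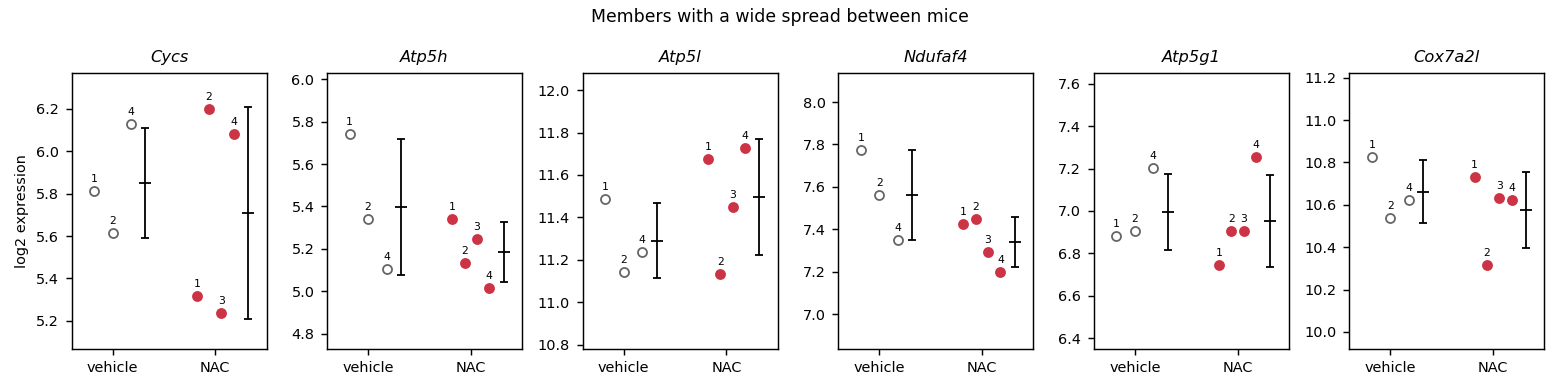
Log2 expression of 6 of the 8 genes with the widest range over the 7 arrays, with 1 point per array labelled by replicate (open, vehicle, n = 3; filled, NAC, n = 4), the mean and SD in black, and a y axis that spans 1.3 log2 units in each panel. The groups overlap in all 6, and in Cycs the NAC arrays form a pair at 6.20 and 6.08 and a pair at 5.32 and 5.24.

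Many genes of oxidative phosphorylation have near-identical processed copies elsewhere in the genome, which can share probes with them. Row identifiers of this array run along the chromosomes. Among rows whose neighbours (10 on each side) lie to at least 80% on 1 chromosome, the neighbours' chromosome was not that of the named gene for 10 of 95 genes here (10.5%) and for 216 of all 18653 rows (1.16%). The 10 genes are Atp5g2, Atp5h, Atp5l, Atp5pb, Cox6c, Cox7a2l, Ndufb11, Ndufc1, Ndufs3 and Uqcrb. Atp5h is on chromosome 11, for example, and its row lay among rows of chromosome 1. Atp5l is on chromosome 9 with its row among chromosome 5, and Uqcrb on chromosome 13 with its row among chromosome 1. Whether such rows measured the named gene or a copy was not tested, so their values are uncertain. Their median range over the arrays was 0.38 log2 units, against 0.18 for the other 86. Without them the median difference was 0.0096, with 49 of 86 genes higher.

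Lists of genes that act with the pathway were compared in the same way. Of 13 regulators of mitochondrial biogenesis, 4 were higher and 9 lower, with 0 past the adjusted test. Tfam, the transcription factor of mitochondrial DNA, was at 7.41, 7.49 and 7.58 with vehicle and at 7.18, 7.38, 7.27 and 7.07 with NAC, all below vehicle, a difference of -0.26 (standard error 0.08, adjusted p = 0.827). Yy1 and the coactivator Ppargc1b had differences of -0.06 and -0.19 (adjusted p = 0.827 for both). In 2 of the 13 (Tfam and Yy1) every NAC array was below every vehicle array, as in 2.18% of all genes. In 0 of the 13 every NAC array was above, as in 1.29% of all genes. Of 16 enzymes of the tricarboxylic acid cycle, 9 were higher and 7 lower. Suclg2, a subunit of succinyl-CoA ligase, was at 9.61, 9.64 and 9.60 with vehicle and at 9.40, 9.51, 9.50 and 9.45 with NAC, a difference of -0.15 (standard error 0.04, adjusted p = 0.827). Mdh2 and Pdha1 had differences of 0.10 and -0.06. In 1 of the 16 (Suclg2) every NAC array was below every vehicle array, and in 0 every NAC array was above.

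Of 28 assembly factors outside the symbol rule, 12 were higher and 16 lower, with 0 past the adjusted test. Taco1, a translational activator of a complex IV subunit, and Sdhaf3, of complex II, were lower on every NAC array than on any vehicle array. These were 2 of the 28, against 2.18% of all genes, and in 0 of the 28 every NAC array was above (1.29% of all genes). Their differences were -0.16 and -0.15 (adjusted p = 0.827 for both), and Foxred1, of complex I, had a difference of -0.07. Among 9 nucleotide carriers, porins and uncoupling proteins 3 were higher and 6 lower, and Slc25a31, Ucp1 and Vdac2 had differences of -0.08, 0.06 and -0.09. The ATPase inhibitor Atpif1, whose symbol is outside the rule, had a vehicle mean of 12.34 ± 0.05 (SD, n = 3) and a NAC mean of 12.31 ± 0.02 (SD, n = 4). Beside the median of 0.0076 over the 96 genes, the median was -0.0242 over 74 mitochondrial ribosomal proteins, -0.0162 over 59 cytosolic ribosomal proteins and 0.0225 over 40 proteasome subunits.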

How the data were processed

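Log2 expression values of 7 arrays (Affymetrix Mouse Gene 1.0 ST) were used as deposited. The authors had made them in R with RMA background correction, quantile normalization and a median polish over probes. The tools affy, RMA and limma are listed in the submitters' processing notes. Such log2 values do not show signal over background, and precision is limited by the number of arrays. Of 20696 rows, 18950 name 1 gene, 678 several and 1068 none in the annotation used here. Symbols were updated through Entrez identifiers, and the row with the highest mean stood for each of 18938 genes. There were 0 columns of values without a sample.

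A linear model per gene with moderated variances was fitted without covariates in limma (version 3.58.1, R 4.3.3), with two-sided p-values adjusted by Benjamini-Hochberg, after the fit was tested on simulated data. Intervals are the fit's 95% intervals for single genes. Named are the subunits with the smallest unadjusted p in each complex (6 in I, 4 in II, 4 in III, 5 in IV and 5 in V), the 4 assembly factors with the smallest p, all paired or tissue forms of complex IV, and the 3 genes with the smallest p of each other list. Genes named for their spread, their row order or as examples of a subcomplex, the promoters, the motifs, the ribosomal and proteasome lists and the row order check were chosen after values were seen. The members and lists were chosen with earlier results of these data known. Tried as alternatives were a robust fit with a variance trend, equal array medians, quantile normalization again, array weights, a filter that dropped the lowest 40% of genes by mean, the median over a gene's rows, a replicate block, each array left out, symbols as given and structural subunits only.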

Additional observations from a re-analysis of the deposited data

Results flagged for a closer look

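Among the 41 genes named by the rule, 4 had an array in the NAC group of 4 that lay far from the other 3, with a gap to its nearest neighbour that, as a share of the group's range, was above Dixon's 95% critical value. Chance marks about 1 in 20 groups. Sdhd was at 9.57 on NAC replicate 2 and between 9.63 and 9.64 on the others. Ndufa4 was at 10.70 on NAC replicate 2 and between 10.53 and 10.55 on the others. Cox15 was at 7.90 on NAC replicate 2 and between 8.14 and 8.17 on the others. Atp5g3 was at 11.05 on NAC replicate 3 and between 11.002 and 11.01 on the others.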

How the results depend on the processing

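In every refit 0 of the oxidative phosphorylation genes tested (88 without dim genes, otherwise 96) passed the adjusted test. The smallest adjusted p of a named one in any setting was 0.667. Over all genes 0 to 1 were called when single arrays were left out, the 1 being Crip1 without NAC replicate 4. Of 41 named members, 31 kept their direction in all settings run and 10 did not. With quantile normalization again, the median difference was 0.0315 over all 96 genes, 0.0051 in complex I, 0.0367 in II, 0.0371 in III, 0.0288 in IV and 0.0453 in V, and the cause of the shift was not tested. With single arrays left out, the median lay between -0.0022 and 0.0129 over all 96 genes, -0.0261 and 0.0007 in complex I and -0.0026 and 0.0239 in complex IV, with a change of sign in each, and stayed above 0 in complexes II, III and V. Leaving out some single array moved the difference of 27 of the 41 named members by over 1.5 times or turned it. Same-numbered arrays deviated from their group means with correlations of 0.212, 0.286 and -0.067. Differently numbered arrays were not set beside these, so whether the numbers pair the mice was not tested. No vehicle array has the number of NAC replicate 3, so the replicate block gave the same differences as leaving that array out. With the block the complex IV median was 0.0239 and the median of all 96 genes 0.0113, and 0 members were called. Cox6a1 turned to 0.0077, Cox6b1 to 0.0241, Cox8a to -0.0014, Cidea to 0.001 and Krt5 to -0.0099. Quantile normalization again turned Sdhd to 0.0175, Cox6a1 to 0.0244, Cox6b1 to 0.0254, Cox7a2 to 0.0151, Ndufa4l2 to -0.0144 and Tgm4 to 0.0, and array weights turned Cox6b1 to 0.0033. With single arrays left out, differences ranged from -0.0171 to 0.005 for Sdhd, -0.0077 to 0.0398 for Sdhb, -0.0273 to 0.0077 for Cox6a1, -0.0262 to 0.0241 for Cox6b1, -0.1479 to 0.0003 for Cox7a2l, -0.0111 to 0.1895 for Cox7b2, -0.0224 to 0.028 for Cox8a, -0.0806 to 0.0443 for Cox8c and -0.0226 to 0.0451 for Ndufa4l2. Among other genes they ranged from -0.0083 to 0.0654 for Elovl3, -0.0131 to 0.0086 for Cidea, -0.1652 to 0.0622 for Trp63, -0.1058 to 0.2776 for Krt5, -0.1259 to 0.0566 for Des, -0.0442 to 0.0163 for Acta2, -0.0897 to 0.0029 for Cd3e and -0.0331 to 0.3643 for Adgre1. Leaving out rows placed among another chromosome's rows, chosen after seeing the data, gave medians of -0.0128 to 0.0256 in the complexes. With 3 and 4 arrays, the adjusted test could also miss differences whose single-gene interval excluded 0. Ndufab1, with an interval of -0.63 to -0.09, had an adjusted p of 0.827 in limma.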
